A study of Rattus norvegicus with 30 samples.

Results

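The step from day 10 to day 12 of serum starvation was examined in REF rat embryonic fibroblasts, a line of connective tissue cells from rat embryos that the labels describe as not transformed. It was taken as the 3 libraries of cells kept without serum for 12 days against the 3 libraries of cells kept without serum for 10 days, 6 of the 30 libraries of the series. The other 24 libraries come from unstarved control cells and from cells starved for 2, 3, 4, 6, 8, 14 or 16 days, with 3 biological replicates in each of the 10 groups. All groups are the same line, and the days compared differ, per the labels, only in how long serum was withheld. Total RNA was sequenced, and the level of each gene is given in FPKM, which scales fragments to transcript length and to the size of the library. All 17353 genes of the table were members, and the 8940 with a mean of at least 1 FPKM over the 30 libraries were tested.

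Fibroblasts without serum lose the growth factors and the lysophospholipids that drive the cell cycle, and they enter quiescence, a non-dividing state from which serum can recall them. The series title concerns how deep that state becomes and names the lysosome as its graded switch. Serum also feeds signalling that is read out by known genes. ERK signalling induces its own inhibitors of the Dusp and Sprouty families, actin assembly and cell spreading act through SRF and YAP with TEAD on cytoskeletal and matrix genes, SREBP2 controls cholesterol synthesis, and ATF4 is induced when amino acids run short or the endoplasmic reticulum is stressed.

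Across the 8940 genes the libraries of a day correlated at 0.9859 to 0.9891 (day 10) and 0.9814 to 0.9898 (day 12) on the log2(FPKM + 1) scale, and libraries of different days at 0.9752 to 0.9893, so the days differed little as wholes. The FPKM of a library summed to between 632046 and 756653 at day 10 and between 697095 and 751448 at day 12. Ribosomal protein genes held 19.5 to 22.2% of that sum at day 10 and 24.2 to 24.9% at day 12. The table gives no read counts, so absolute depth is unknown, and no interval for a single value can be given. Replicate 1 of both days had the most genes above 0 FPKM, 10438 against 10027 and 10003 at day 10 and 10525 against 10110 and 10069 at day 12, and replicate 1 was also the highest of its group on the other days. The spacing of the lowest FPKM values, which are multiples of what 1 fragment is worth, put the depth relative to day 10 replicate 1 at about 0.439 and 0.457 for day 10 replicates 2 and 3, and at 1.16, 0.519 and 0.519 for day 12. These estimates rest on 64 to 163 genes a library. With replicates 2 and 3 alone, 38 genes rose and 115 fell. In bulk RNA, fewer cells of a kind and less RNA per cell cannot be told apart. Fibroblast markers summed to 17100 to 17600 FPKM at day 10 and 15100 to 17400 at day 12, although Col1a2, Thy1 and Fap were listed at 0 in all 6 libraries. Pdgfra, Dcn and Lum were very low as well, with means of 0.4367, 0.2266 and 1.151 FPKM at day 10. Most of the sum came from Fn1 (means 7683 FPKM at day 10 and 6214 at day 12), Vim (3944 and 4308) and S100a4 (2954 and 3036). Of the markers of other cell types, 8 of 9 adipocyte, 11 of 14 macrophage, 5 of 10 endothelial, 7 of 10 epithelial, 4 of 11 neural and 6 of 18 skeletal muscle genes in the table were listed at 0 in all 6. The summed level of the epithelial markers ran from 27.6 to 32 FPKM at day 10 and from 33.5 to 53.1 at day 12, and that of the endothelial markers from 4.81 to 6.17 and from 7.3 to 7.85. Krt8 held nearly all of the epithelial sum (means 30.22 and 42.45 FPKM) and Egfl7 most of the endothelial sum (5.324 and 7.287). The neural sum ran from 68.8 to 84.8 FPKM at day 10 and from 71.8 to 74.7 at day 12, mostly Stmn2 (means 74.47 and 69.44). The skeletal muscle sum ran from 79.4 to 108 and from 99.5 to 112. The part of these markers in the results was not tested.

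From day 10 to day 12, 110 genes rose and 191 fell, 1.23% and 2.14% of the genes tested (limma on log2(FPKM + 1), two-sided, adjusted p under 0.05 by the Benjamini-Hochberg method). Changes are given as the fitted difference, day 12 minus day 10, on that log2 scale, with its standard error (SE). Most changes were small, with a median size of 0.49 on the log2 scale among the 301 genes called, and 6 rises and 11 falls reached 2-fold. In 298 of the 301 the 3 libraries of one day did not overlap the 3 of the other, but the same was true of 8.2% of all genes in the upward and 10.2% in the downward direction. Before correction 1572 genes had p under 0.05, 655 of them higher and 917 lower at day 12. Of all 8940 fitted changes, 3980 were above 0 and 4953 below 0. The balance of rises and falls depended on scaling. Rises were 36.5% of the calls as deposited, 19.1% (62 rises, 263 falls) when each library was rescaled to an equal sum, and 22.1% (83 rises, 292 falls) when short RNA genes were left out before rescaling. They were 40.4% with upper quartile scaling and 44.1% after quantile normalization. The count itself rested on the spread shared by all 10 groups, since with the 6 libraries alone 2 genes rose and 9 fell. It also ranged from 131 calls (without day 12 replicate 1) to 343 (without day 12 replicate 3) as each library was left out.

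**Figure D1:**
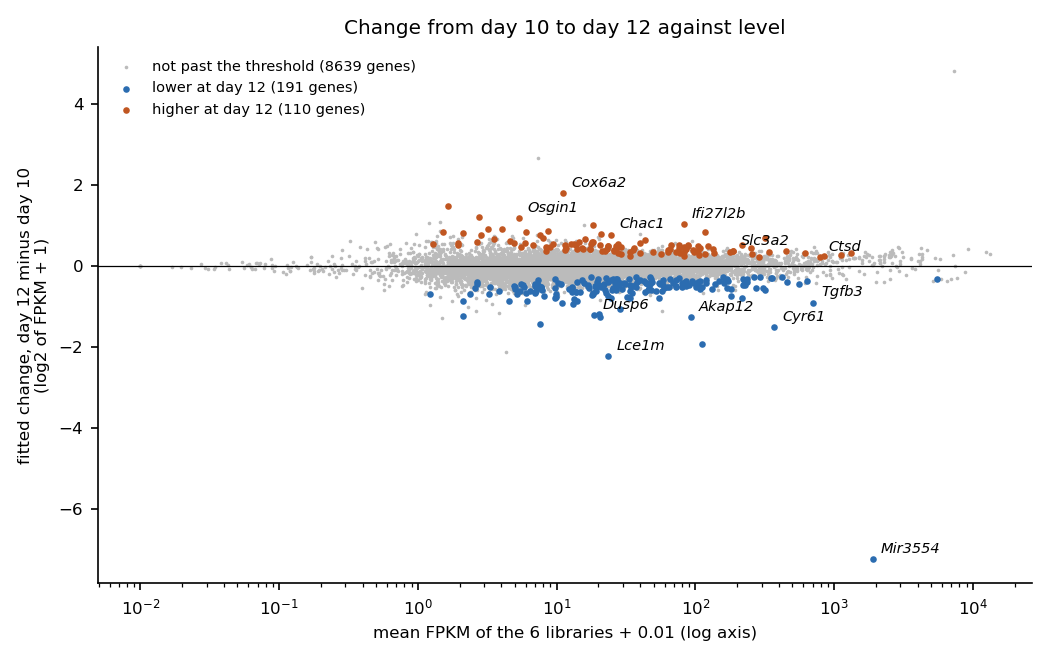
Fitted change from day 10 to day 12 (vertical axis, log2 of FPKM + 1) of each of the 8940 genes against its mean FPKM over the 6 libraries (log axis), with genes lower at day 12 in blue, higher in orange and the rest in grey. Cyr61 lies far below 0 at a high level, and the libraries of Mir3554 overlap.

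The lowest point in the plot of change against level is Mir3554, a microRNA locus that stood at 308, 0 and 11040 FPKM at day 10 and at 0 in every day 12 library. It is named here after its values were seen, and its day 10 libraries overlap those of day 12. The rest of the account follows genes whose libraries were separate unless stated.

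Genes that respond to actin dynamics, SRF and YAP were lower at day 12. Of 27 tested members of the list, 7 fell and none rose, 26 of the 27 fitted changes were below 0, and the median was -0.32 against -0.027 over all genes tested. Over all genes 2.14% fell, and 4953 of 8940 changes were below 0. Promoter sequence of 3 of the fallers is shown because TEAD, the DNA-binding partner of YAP, recognises the core GGAATG. The sequences are from RefSeq (build GRCr8), on the gene's strand, with the core in capitals on whichever strand it lies (CATTCC is the same core on the other strand).
Ctgf, chr1:22624676-22624731, minus strand: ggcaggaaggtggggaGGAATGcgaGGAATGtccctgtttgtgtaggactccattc
Cyr61, chr2:237225772-237225827, minus strand: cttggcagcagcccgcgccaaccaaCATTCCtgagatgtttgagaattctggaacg
Vcl, chr15:3404937-3404992, minus strand: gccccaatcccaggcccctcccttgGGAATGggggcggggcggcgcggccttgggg
The Ctgf window holds 2 cores, the second of which begins 92 bases before the start site given by RefSeq, and those of Cyr61 and Vcl begin 113 and 167 bases before theirs. The promoter of Srf itself carries CArG boxes, the sites that SRF binds, with both boxes in capitals.
Srf, chr9:21923990-21924049, plus strand: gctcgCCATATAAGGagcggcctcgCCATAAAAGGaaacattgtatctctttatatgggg
Over 300-base promoters (250 before and 50 after the start), 10 of the 19 list members matched to RefSeq held GGAATG on either strand, against 13.9% of all 27457 promoters, and 2 of 19 held a CArG box, against 1.64%. Of the 6 called members among the 19, 3 held GGAATG and 1 a CArG box. These motifs were chosen after the genes' values were seen, and a match is a description of the sequence only.

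Cyr61, a secreted matrix protein and a standard YAP target, stood at 499, 555 and 584 FPKM at day 10 and at 194, 194 and 187 FPKM at day 12 (log2 change -1.505, SE 0.089, adjusted p = 4.31e-11). The day 12 libraries lie close together and far below those of day 10. Vcl, vinculin, which ties adhesions to actin filaments, stood at 368, 354 and 371 FPKM at day 10 and at 233, 253 and 266 FPKM at day 12 (log2 change -0.54, SE 0.095, adjusted p = 0.00137). Srf stood at 54.8, 55.2 and 54.3 FPKM at day 10 and at 40.4, 39.8 and 39.4 FPKM at day 12 (log2 change -0.45, SE 0.053, adjusted p = 1.13e-05). The libraries of each day were closely grouped. Ankrd1, another YAP target, stood at 20.1, 23.1 and 24.7 FPKM at day 10 and at 12.2, 15.99 and 13.2 FPKM at day 12 (log2 change -0.68, SE 0.10, adjusted p = 0.000249). Ctgf, the sister gene of Cyr61, named after its values were seen, stood at 5899, 6203 and 6166 FPKM at day 10 and at 4799, 4918 and 4925 FPKM at day 12 (log2 change -0.32, SE 0.076, adjusted p = 0.0181), a change that was even across libraries but small. Its call was lost without replicate 2 or 3 of day 10, or replicate 1 or 2 of day 12 (adjusted p 0.0529 to 0.0834), and after quantile normalization (adjusted p 0.305). Acta2, smooth muscle actin, stood at 5146, 6959 and 7469 FPKM at day 10 and at 4873, 5428 and 5306 FPKM at day 12, and these ranges overlap (log2 change -0.31, SE 0.12, adjusted p = 0.185). Counts of falling list members ran from 4 to 9 as single libraries were left out, with 4 without day 12 replicate 1. They were 11 with libraries rescaled to an equal sum, 12 with short RNA genes left out before rescaling and 10 after quantile normalization.

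**Figure D2:**
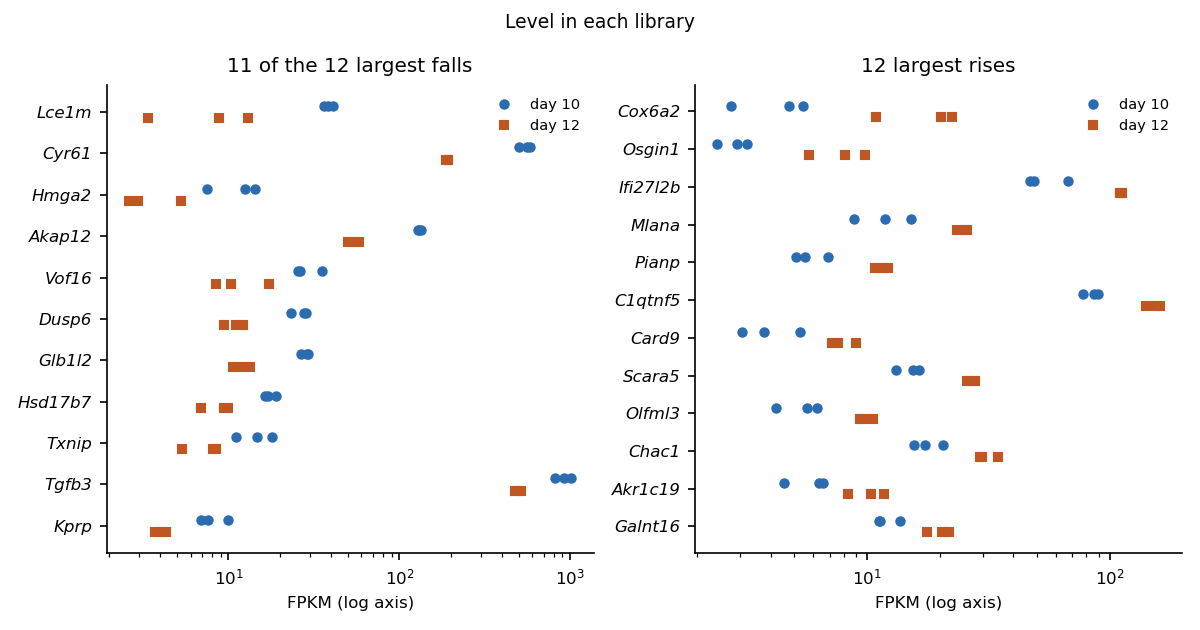
FPKM (horizontal log axis) in each of the 3 day 10 libraries (blue circles) and 3 day 12 libraries (orange squares) for 11 of the 12 largest falls and the 12 largest rises that the naming rule selects. In every row the 2 sets of points are apart, as that rule requires. The gap is widest for Lce1m on the left and Cox6a2 on the right.

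Feedback inhibitors of ERK signalling were among the genes that fell. On the list of immediate early genes and ERK feedback, 6 of 25 tested members fell, 2 rose, and the median was -0.18. For all genes tested the shares were 2.14% and 1.23%, and the median was -0.027. Dusp6, the phosphatase that acts on ERK itself, stood at 23.3, 28.3 and 27.8 FPKM at day 10 and at 9.40, 11.03 and 12.1 FPKM at day 12 (log2 change -1.21, SE 0.14, adjusted p = 7.36e-06). Spry2 and Spry4 are Sprouty proteins that restrain receptor tyrosine kinases. Spry2 stood at 43.1, 40.7 and 45.2 FPKM at day 10 and at 27.8, 28.05 and 24.6 FPKM at day 12 (log2 change -0.66, SE 0.085, adjusted p = 3.65e-05). Spry4 stood at 16.3, 16.1 and 18.4 FPKM at day 10 and at 9.40, 12.3 and 10.2 FPKM at day 12 (log2 change -0.63, SE 0.11, adjusted p = 0.00150). All 3 genes were lower in each day 12 library than in any of day 10. The 2 that rose are stress-responsive transcription factors, named after their values were seen. Atf3 stood at 0.808, 1.39 and 0.266 FPKM at day 10 and at 2.48, 1.47 and 2.64 FPKM at day 12 (log2 change 0.84, SE 0.18, adjusted p = 0.00840), so its level was near the filter. Jun stood at 13.5, 16.6 and 14.04 FPKM at day 10 and at 18.9, 20.1 and 21.5 FPKM at day 12 (log2 change 0.43, SE 0.10, adjusted p = 0.0178). Their calls were lost for Atf3 without replicate 3 of day 10, or replicate 1 of day 12 (adjusted p 0.0605 to 0.0720) and Jun without replicate 1 or 3 of day 10, or replicate 2 or 3 of day 12 (adjusted p 0.0547 to 0.0993), and that of Jun also with libraries rescaled to an equal sum (adjusted p 0.0939) or the trend over gene span removed (adjusted p 0.0983). Myc, an immediate early gene with a broad role in growth, stood at 5.30, 4.76 and 6.52 FPKM at day 10 and at 3.95, 5.12 and 5.06 FPKM at day 12, with overlapping ranges (log2 change -0.19, SE 0.17, adjusted p = 0.582).

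The other large falls were of mixed kinds. Lce1m, of the late cornified envelope family of skin proteins, stood at 41.1, 38.5 and 36.4 FPKM at day 10 and at 13.1, 3.40 and 8.81 FPKM at day 12 (log2 change -2.22, SE 0.31, adjusted p = 0.000139), and Kprp, a proline-rich protein of keratinocytes, stood at 9.96, 6.93 and 7.64 FPKM at day 10 and at 4.30, 4.06 and 3.70 FPKM at day 12 (log2 change -0.86, SE 0.15, adjusted p = 0.00116). Both are genes better known from the epidermis. Tgfb3, a ligand of the TGF-beta family, stood at 817, 923 and 1016 FPKM at day 10 and at 475, 515 and 484 FPKM at day 12 (log2 change -0.90, SE 0.089, adjusted p = 6.94e-07). Akap12, a scaffold that anchors protein kinases A and C, stood at 128, 130.5 and 134 FPKM at day 10 and at 49.99, 55.3 and 58.3 FPKM at day 12 (log2 change -1.25, SE 0.12, adjusted p = 2.16e-07). In both genes the ranges of the days lie far apart. Glb1l2, a relative of beta-galactosidase, stood at 28.9, 29.3 and 26.6 FPKM at day 10 and at 10.6, 11.8 and 13.4 FPKM at day 12 (log2 change -1.18, SE 0.14, adjusted p = 1.13e-05). Txnip, which binds thioredoxin and follows glucose supply, stood at 14.7, 11.05 and 18.05 FPKM at day 10 and at 8.08, 8.49 and 5.37 FPKM at day 12 (log2 change -0.90, SE 0.19, adjusted p = 0.00563). Day 12 replicate 3 was the lowest of the 6 for this gene. Hmga2, a chromatin protein of embryonic and dividing cells, stood at 12.6, 14.4 and 7.52 FPKM at day 10 and at 2.62, 2.97 and 5.29 FPKM at day 12 (log2 change -1.43, SE 0.38, adjusted p = 0.0344). Vof16 stood at 35.3, 26.2 and 25.6 FPKM at day 10 and at 8.45, 17.2 and 10.3 FPKM at day 12 (log2 change -1.25, SE 0.35, adjusted p = 0.0446). The replicates of these last 2 genes were uneven. With 1 library left out, calls were lost for Hmga2 without replicate 1 or 2 of either day (adjusted p 0.115 to 0.166), Vof16 without replicate 1, 2 or 3 of day 10, or replicate 1 or 3 of day 12 (adjusted p 0.0793 to 0.210) and Txnip without replicate 3 of day 10 (adjusted p 0.0529). Edn1, the vasoactive peptide endothelin 1, changed by -0.79, SE 0.13 (adjusted p = 0.000851). Il1rl1, the receptor of interleukin 33, changed by -0.73, SE 0.14 (adjusted p = 0.00406). Both fell with no overlap between days. Clk1, a kinase of splicing factors, changed by -0.77, SE 0.17 (adjusted p = 0.00933), and Snai2, a repressor of epithelial genes, by -0.77, SE 0.21 (adjusted p = 0.0388). These calls were lost for Clk1 without replicate 1 of day 10, or replicate 3 of day 12 (adjusted p 0.0533 to 0.0781) and Snai2 without replicate 1, 2 or 3 of day 10, or replicate 1 or 2 of day 12 (adjusted p 0.0613 to 0.194).

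Genes of cholesterol synthesis fell or stood lower at day 12 with few exceptions. Of the 20 genes of the pathway tested, 9 fell, none rose, 18 had a fitted change below 0, and the median was -0.31, a fold of 0.808. By comparison, 2.14% of all genes tested fell, 4953 of 8940 changes were below 0, and the median was -0.027. Hsd17b7, a sterol reductase of the late pathway, had the largest fall on the list, standing at 17, 16.5 and 18.98 FPKM at day 10 and at 6.94, 9.43 and 9.94 FPKM at day 12 (log2 change -0.93, SE 0.20, adjusted p = 0.00701). Lss, which closes the sterol rings, stood at 94.95, 93.1 and 94.6 FPKM at day 10 and at 56.03, 72.3 and 71.6 FPKM at day 12 (log2 change -0.50, SE 0.095, adjusted p = 0.00268). Idi1, an isomerase of the early pathway, stood at 72.2, 76.8 and 71.05 FPKM at day 10 and at 42.6, 54.8 and 58.4 FPKM at day 12 (log2 change -0.50, SE 0.11, adjusted p = 0.0105). In these genes day 12 replicate 1 was the lowest library. Hmgcs1, a synthase of the early pathway, stood at 252, 244 and 240.2 FPKM at day 10 and at 184, 193 and 214 FPKM at day 12 (log2 change -0.32, SE 0.08, adjusted p = 0.0246). It fell with separate ranges. Tm7sf2, a sterol reductase, went the other way without passing the test, at 124, 154 and 164 FPKM at day 10 and at 182, 188 and 168 FPKM at day 12 (log2 change 0.29, SE 0.11, adjusted p = 0.156). As libraries were left out in turn, calls were lost for Hsd17b7 without replicate 1 of day 12 (adjusted p 0.0649), Idi1 without replicate 1 of day 12 (adjusted p 0.104) and Hmgcs1 without replicate 1, 2 or 3 of day 10, or replicate 1 or 2 of day 12 (adjusted p 0.0544 to 0.146). As single libraries were left out, the number of falling members ran from 1 (without day 12 replicate 1) to 8 (without day 12 replicate 3), while the median stayed between -0.33 and -0.26.

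Genes of sterol uptake and SREBP control were mixed, with 3 of 15 tested members lower, 1 higher and a median of -0.045. Shares over all genes tested were 2.14% lower and 1.23% higher, with a median of -0.027. Insig1, which holds the SREBP escort in the endoplasmic reticulum and is itself an SREBP target, stood at 275, 260.5 and 264 FPKM at day 10 and at 198, 199 and 216 FPKM at day 12 (log2 change -0.38, SE 0.078, adjusted p = 0.00562). Stard4, a carrier of sterols between membranes, stood at 7.91, 6.91 and 5.12 FPKM at day 10 and at 2.71, 4.63 and 3.88 FPKM at day 12 (log2 change -0.69, SE 0.17, adjusted p = 0.0178). Both were lower at day 12 in every library. Npc2, which passes cholesterol out of the lysosome, stood at 861, 1133 and 1062 FPKM at day 10 and at 1276, 1245 and 1189 FPKM at day 12 (log2 change 0.29, SE 0.08, adjusted p = 0.0447). On the list of fatty acid synthesis and acetyl-CoA supply 2 of 17 fell (2.14% of all genes), none rose and the median was -0.19. They were Lpin1, a phosphatidate phosphatase (-0.64, adjusted p = 0.0160), and Acsl1, which activates long fatty acids (-0.39, adjusted p = 0.0254). When a library was left out, calls were lost for Stard4 without replicate 1 or 2 of day 10, or replicate 1 of day 12 (adjusted p 0.0603 to 0.147) and Npc2 without replicate 1 or 3 of day 10, or replicate 1, 2 or 3 of day 12 (adjusted p 0.0508 to 0.271). They were also lost for Lpin1 without replicate 1 or 3 of day 10, or replicate 1 of day 12 (adjusted p 0.0729 to 0.0913) and Acsl1 without replicate 2 or 3 of day 10, or replicate 1 or 2 of day 12 (adjusted p 0.0826 to 0.117). Npc2 missed the threshold with libraries rescaled to an equal sum too (adjusted p 0.113), as did Lpin1 with a pseudocount of 0.1 (adjusted p 0.128) and Acsl1 with the trend over gene span removed (adjusted p 0.0827). On the fatty acid list 4 fell with libraries rescaled to an equal sum. The sterol regulatory element TCACNCCAC was found on neither strand of the promoters of 15 matched cholesterol synthesis and 12 matched uptake genes, and 1.13% of all promoters hold it.

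**Figure D3:**
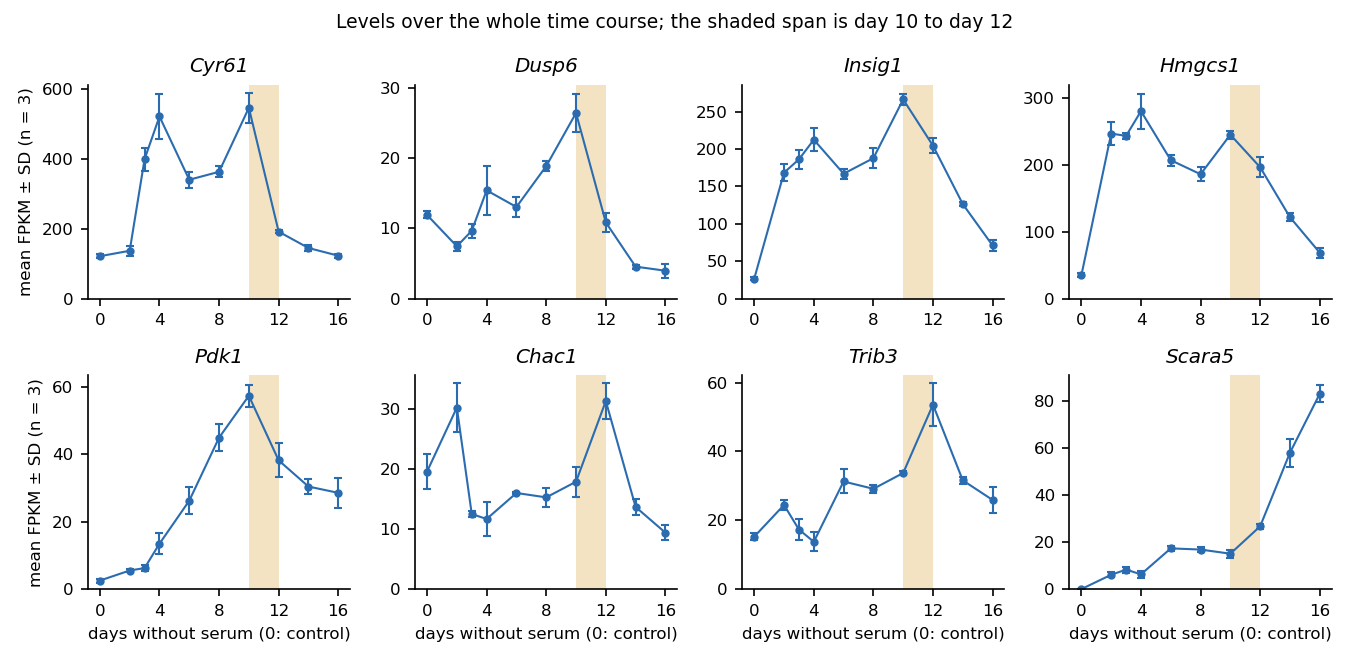
Mean FPKM ± SD (vertical axes, n = 3 libraries) of 8 genes over days without serum (horizontal axes, 0 for the unstarved control), with the step from day 10 to day 12 shaded. Cyr61, Dusp6 and Insig1 drop from their day 10 level, Hmgcs1 and Pdk1 decline, Chac1 and Trib3 peak at day 12, and Scara5 climbs on to day 16.

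Of the 21 tested genes that cells raise in low oxygen, 3 fell and 1 rose (2.14% and 1.23% over all genes). Their median was -0.13. Pdk1, the kinase that shuts off pyruvate dehydrogenase, stood at 54.05, 57.3 and 60.5 FPKM at day 10 and at 35.2, 35.3 and 43.95 FPKM at day 12 (log2 change -0.58, SE 0.15, adjusted p = 0.0303). Kdm3a, a histone demethylase, stood at 35.6, 27.4 and 32.05 FPKM at day 10 and at 21.2, 25.7 and 24.4 FPKM at day 12 (log2 change -0.40, SE 0.097, adjusted p = 0.0206). Plod2, which hydroxylates collagen lysines, stood at 91.3, 94.2 and 102 FPKM at day 10 and at 63.2, 78.6 and 81.6 FPKM at day 12 (log2 change -0.37, SE 0.097, adjusted p = 0.0324). For Plod2 the lowest library was day 12 replicate 1. P4ha2, a collagen prolyl hydroxylase, rose, at 99.5, 92.7 and 92.4 FPKM at day 10 and at 122, 122 and 105 FPKM at day 12 (log2 change 0.29, SE 0.077, adjusted p = 0.0341). All 4 calls lay near the threshold and did not hold throughout when 1 library was left out. They were lost for Pdk1 without replicate 1, 2 or 3 of day 10, or replicate 1 or 2 of day 12 (adjusted p 0.0637 to 0.143) and Kdm3a without replicate 1 or 3 of day 10, or replicate 1 of day 12 (adjusted p 0.0701 to 0.146), and for Plod2 without replicate 1, 2 or 3 of day 10, or replicate 1 of day 12 (adjusted p 0.0558 to 0.234) and P4ha2 without replicate 2 or 3 of day 10, or replicate 1 or 2 of day 12 (adjusted p 0.104 to 0.171). P4ha2 missed the threshold with libraries rescaled to an equal sum as well (adjusted p 0.232), and after quantile normalization (adjusted p 0.0838). Without day 10 replicate 3, or without day 12 replicate 1, none of the 21 passed. None of the 15 glycolysis genes tested passed (limma, median -0.104), and before correction 5 were lower and 2 higher at p under 0.05. That count depended on scaling, with 2 falls when libraries were rescaled to an equal sum, 4 when short RNA genes were left out before rescaling, 3 falls and 1 rise after quantile normalization, and 1 rise with upper quartile scaling. The glucose transporter Slc2a1 changed by -0.40, SE 0.15 (adjusted p = 0.144), Pgk1 by -0.19, SE 0.077 (adjusted p = 0.185) and Ldha by -0.20, SE 0.091 (adjusted p = 0.252). In these 3 the libraries of the days were separate, and all 3 passed with short RNA genes left out before rescaling. The growth factor of vessels, Vegfa, changed by -0.13, SE 0.10 with overlap (adjusted p = 0.534). A hypoxia response core (ACGTG or GCGTG, either strand) was in 10 of 14 matched glycolysis promoters and 13 of 18 of the hypoxia-type list, against 42.9% of all promoters.

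**Figure D4:**
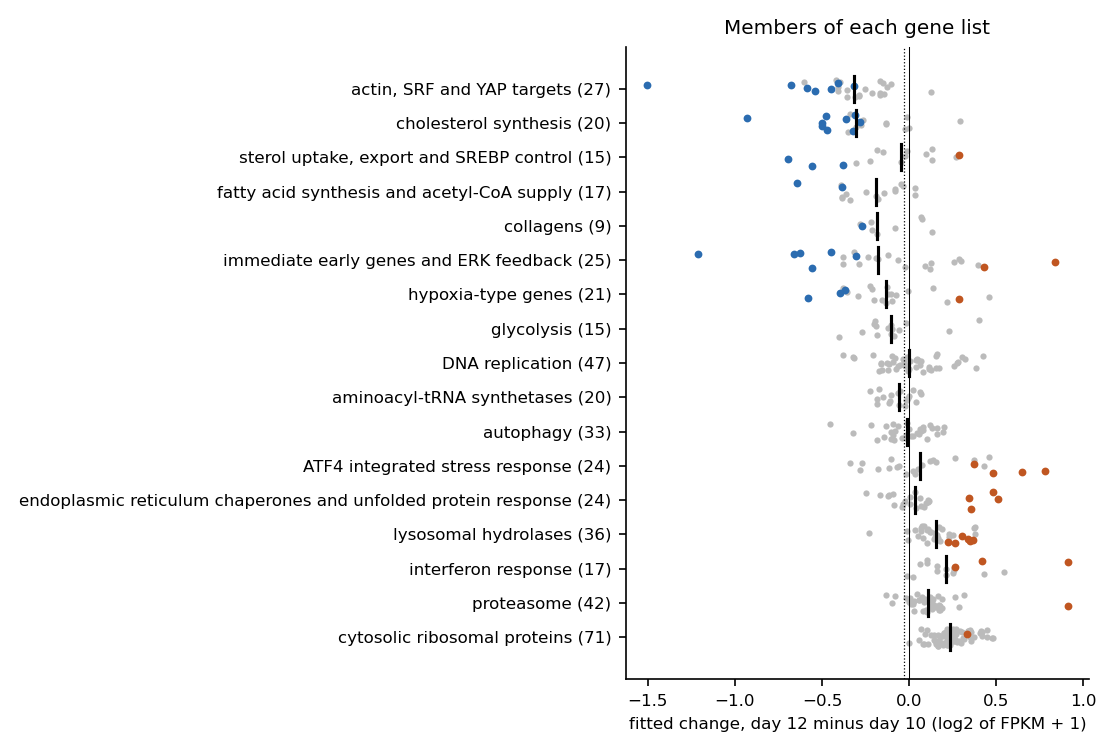
Fitted change from day 10 to day 12 (horizontal axis, log2 of FPKM + 1) of each tested member of 17 gene lists, with the number tested in brackets, falls called in blue, rises called in orange, other members in grey and a black bar at the list's median. The dotted line is the median of all genes tested (-0.027), and the bars of the actin and cholesterol lists lie lowest while that of the ribosomal proteins lies highest.

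Among the largest rises, Cox6a2, the form of a cytochrome c oxidase subunit found in heart and muscle, stood at 2.76, 4.75 and 5.44 FPKM at day 10 and at 10.9, 22.4 and 20.1 FPKM at day 12 (log2 change 1.8, SE 0.45, adjusted p = 0.0247). Osgin1, a target of the oxidative stress factor NRF2, stood at 2.90, 2.42 and 3.19 FPKM at day 10 and at 9.84, 8.09 and 5.74 FPKM at day 12 (log2 change 1.19, SE 0.18, adjusted p = 0.000249). Ifi27l2b, of an interferon-inducible family, stood at 47.1, 66.9 and 48.8 FPKM at day 10 and at 109.8, 112 and 110.2 FPKM at day 12 (log2 change 1.03, SE 0.18, adjusted p = 0.00116). These rises were 2-fold or more, and Cox6a2 was the least even between replicates. Mlana, known from melanosomes, stood at 11.9, 8.82 and 15.2 FPKM at day 10 and at 25.3, 25.7 and 23.5 FPKM at day 12 (log2 change 1.02, SE 0.18, adjusted p = 0.00109). C1qtnf5, a secreted protein with a C1q domain, stood at 77.1, 86.1 and 89.1 FPKM at day 10 and at 154, 160.5 and 141 FPKM at day 12 (log2 change 0.84, SE 0.12, adjusted p = 9.9e-05). Scara5, a scavenger receptor that takes up ferritin, stood at 16.4, 13.2 and 15.5 FPKM at day 10 and at 25.7, 27.7 and 26.5 FPKM at day 12 (log2 change 0.79, SE 0.12, adjusted p = 0.000359). In the last 2 the libraries of each day were tightly grouped. Olfml3, a secreted olfactomedin-like protein, stood at 4.23, 5.64 and 6.21 FPKM at day 10 and at 9.62, 9.35 and 10.6 FPKM at day 12 (log2 change 0.78, SE 0.12, adjusted p = 0.000249). Galnt16, an enzyme that starts O-linked glycans, stood at 11.1, 11.4 and 13.7 FPKM at day 10 and at 17.6, 20.4 and 21.7 FPKM at day 12 (log2 change 0.68, SE 0.10, adjusted p = 0.000249). Pianp changed by 0.88, SE 0.17 (adjusted p = 0.00343). All rose in every day 12 library over every day 10 library, which the rule that named them required. Card9, an adaptor of innate immune signalling, changed by 0.84, SE 0.22 (adjusted p = 0.0297), and Akr1c19, an aldo-keto reductase, by 0.71, SE 0.16 (adjusted p = 0.0131). With single libraries left out, calls were lost for Cox6a2 without replicate 1 or 2 of day 10, or replicate 2 or 3 of day 12 (adjusted p 0.0501 to 0.120), Card9 without replicate 2 or 3 of day 10, or replicate 1 or 2 of day 12 (adjusted p 0.0743 to 0.146) and Akr1c19 without replicate 2 of day 10, or replicate 1 or 2 of day 12 (adjusted p 0.0601 to 0.0811). Card9 also missed the threshold with libraries rescaled to an equal sum (adjusted p 0.0932). With a pseudocount of 0.1, Cox6a2 (adjusted p 0.240), Card9 (adjusted p 0.293) and Mlana (adjusted p 0.0749) missed it.

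Part of the ATF4 programme rose. Of 24 tested members 4 rose and none fell, with a median of 0.059 for the whole list, against -0.027 over all genes tested. Among all genes 1.23% rose. The promoters of 2 of the 4 are shown because they hold the amino acid response core TGATGNAA, to which ATF4 with a partner binds, in capitals on the strand opposite to the gene.
Chac1, chr3:126795939-126795996, plus strand: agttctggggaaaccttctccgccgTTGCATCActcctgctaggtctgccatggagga
Trib3, chr3:161275534-161275579, minus strand: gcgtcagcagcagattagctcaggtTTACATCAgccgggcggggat
They begin 167 and 21 bases before the start. The core, also chosen after the values were seen, was in 4 of the 24 promoters on the list, against 3.82% of all promoters. Its other carriers on the list, Pycr1 (log2 change -0.06) and Slc7a1 (-0.34), were not called. Chac1, an enzyme that breaks down glutathione, stood at 15.7, 17.2 and 20.6 FPKM at day 10 and at 34.7, 29.8 and 29.2 FPKM at day 12 (log2 change 0.78, SE 0.14, adjusted p = 0.00134). Trib3, a pseudokinase that restrains ATF4 signalling, stood at 33.2, 34.3 and 33.7 FPKM at day 10 and at 49.6, 60.7 and 50.6 FPKM at day 12 (log2 change 0.65, SE 0.12, adjusted p = 0.00268). Slc3a2, the shared heavy chain of several amino acid transporters, stood at 146, 168 and 172 FPKM at day 10 and at 212, 206 and 211 FPKM at day 12 (log2 change 0.37, SE 0.063, adjusted p = 0.00102). These 3 rose in every day 12 library. Ddit3, the transcription factor CHOP, which belongs to the list of endoplasmic reticulum stress too, stood at 65.97, 70.8 and 67.9 FPKM at day 10 and at 109, 92.4 and 87.2 FPKM at day 12 (log2 change 0.48, SE 0.12, adjusted p = 0.0235). None of the 20 aminoacyl-tRNA synthetase genes, several of them known ATF4 targets, passed in limma (median -0.055; 0 higher and 3 lower before correction).

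On the list of endoplasmic reticulum chaperones and the unfolded protein response 4 of 24 rose, Ddit3 included, none fell, and the median was 0.037. By comparison, 1.23% of all genes tested rose, and their median was -0.027. Hspa5, the main chaperone BiP, stood at 267, 314 and 318 FPKM at day 10 and at 369, 376 and 402 FPKM at day 12 (log2 change 0.35, SE 0.083, adjusted p = 0.0160). Herpud1, which helps clear misfolded proteins, stood at 73.6, 72.4 and 70.6 FPKM at day 10 and at 98.99, 88.6 and 88.4 FPKM at day 12 (log2 change 0.34, SE 0.077, adjusted p = 0.0118). Creld2, a stress-induced protein of this compartment, stood at 24.2, 23.9 and 17.9 FPKM at day 10 and at 34.01, 32.7 and 28.2 FPKM at day 12 (log2 change 0.51, SE 0.12, adjusted p = 0.0141). Their libraries did not overlap between days. After leaving out 1 library, calls were lost for Ddit3 without replicate 1 or 3 of day 10, or replicate 1 or 2 of day 12 (adjusted p 0.0524 to 0.161) and Hspa5 without replicate 1 of day 10, or replicate 3 of day 12 (adjusted p 0.0546 to 0.114), and for Herpud1 without replicate 3 of day 10, or replicate 1 of day 12 (adjusted p 0.0511 to 0.0875) and Creld2 without replicate 3 of day 10, or replicate 1 or 2 of day 12 (adjusted p 0.0582 to 0.103). With libraries rescaled to an equal sum, Ddit3 (adjusted p 0.112), Herpud1 (adjusted p 0.237) and Creld2 (adjusted p 0.0546) missed the threshold, and the median of the list was -0.017. Hspa5 missed it with the trend over gene span removed (adjusted p 0.0572).

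Lysosomal hydrolases are the enzymes that digest material in the lysosome. Of 36 tested, 6 rose, none fell, 33 had a fitted change above 0, and the median was 0.154, a fold of 1.11. Among all genes tested 1.23% rose, 3980 of 8940 changes were above 0, and the median was -0.027. Ctsh stood at 78.8, 87.95 and 90.2 FPKM at day 10 and at 109.6, 105 and 113 FPKM at day 12 (log2 change 0.35, SE 0.076, adjusted p = 0.00941). Ctsz stood at 25.5, 32.9 and 30.2 FPKM at day 10 and at 38.2, 38.1 and 38.1 FPKM at day 12 (log2 change 0.36, SE 0.084, adjusted p = 0.0147). Both are cathepsins, proteases of the lysosome. Ctsd, the main aspartic protease there, stood at 685, 727 and 762 FPKM at day 10 and at 849, 848 and 840.4 FPKM at day 12 (log2 change 0.22, SE 0.056, adjusted p = 0.0235). Hexa, a subunit of beta-hexosaminidase, stood at 207, 244 and 239 FPKM at day 10 and at 281, 283 and 288 FPKM at day 12 (log2 change 0.30, SE 0.077, adjusted p = 0.0264). Ctsd had the smallest change called among all 301 genes. Calls were lost for Ctsh without replicate 1 of day 10 (adjusted p 0.0726) and Ctsz without replicate 1 of either day (adjusted p 0.0580 to 0.115), and for Ctsd without replicate 1 or 2 of either day (adjusted p 0.0561 to 0.118) and Hexa without replicate 1 of day 10, or replicate 1, 2 or 3 of day 12 (adjusted p 0.0611 to 0.161). None of the 36 passed without day 10 replicate 1, or with replicates 2 and 3 only. With libraries rescaled to an equal sum 2 passed, the median was 0.104, and Ctsd (adjusted p 0.286) and Ctsh (adjusted p 0.0787) were not called. Ctsd was not called after quantile normalization either (adjusted p 0.173). No gene passed in limma among 19 lysosomal membrane proteins (median 0.041; 2 higher and 1 lower before correction; 1 fall with libraries rescaled to an equal sum) or 17 subunits of the vacuolar ATPase, the proton pump of the lysosome (median 0.078; 3 higher and 0 lower). None passed either among 33 autophagy genes (median -0.012; 1 higher and 4 lower before correction; 1 rise with the trend over gene span removed) or 20 genes of the MiT factors and lysosomal growth signalling (median -0.051; 1 higher and 0 lower). The lysosomal coat protein Lamp1 stood at 809.5, 783 and 776 FPKM at day 10 and at 908, 776 and 823 FPKM at day 12, with overlap (log2 change 0.079, SE 0.084, adjusted p = 0.654). Sqstm1, a cargo receptor of autophagy, changed by 0.20, SE 0.061 with separate ranges (adjusted p = 0.0724). Tfeb, the MiT factor that drives lysosomal genes, changed by 0.28, SE 0.17 with overlap (adjusted p = 0.409).

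Interferon-response genes had 3 rises among 17 tested, no fall and a median of 0.214, against 1.23% rises and a median of -0.027 over all genes. Psmb9, a subunit of the immunoproteasome, stood at 1.92, 2.63 and 3.003 FPKM at day 10 and at 6.07, 6.30 and 4.44 FPKM at day 12 (log2 change 0.91, SE 0.24, adjusted p = 0.0324). Tap1, which carries peptides to class I molecules, stood at 10.7, 12.99 and 12.1 FPKM at day 10 and at 17.1, 17.1 and 14.6 FPKM at day 12 (log2 change 0.42, SE 0.11, adjusted p = 0.0372). Lgals3bp, a secreted galectin-binding protein, stood at 74.3, 74.7 and 77.5 FPKM at day 10 and at 91.3, 95.2 and 85.8 FPKM at day 12 (log2 change 0.26, SE 0.072, adjusted p = 0.0436). In all 3 the days were separate. With 1 library left out, calls were lost for Psmb9 without replicate 1, 2 or 3 of day 10, or replicate 1 or 2 of day 12 (adjusted p 0.0517 to 0.150) and Tap1 without replicate 1 or 3 of day 10, or replicate 1 or 2 of day 12 (adjusted p 0.0815 to 0.168), and for Lgals3bp without replicate 1, 2 or 3 of day 10, or replicate 1 or 2 of day 12 (adjusted p 0.0738 to 0.160). Tap1 (adjusted p 0.127) and Lgals3bp (adjusted p 0.283) also missed the threshold with libraries rescaled to an equal sum, and Lgals3bp with the trend over gene span removed (adjusted p 0.0714). C1s, a protease of the complement cascade and the 1 riser among 5 complement genes, stood at 10.4, 10.7 and 11.1 FPKM at day 10 and at 16.4, 16.4 and 15.5 FPKM at day 12 (log2 change 0.54, SE 0.11, adjusted p = 0.00642).

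On the list of antioxidant and glutathione genes 2 of 31 tested were higher and 2 lower, Txnip among the latter. Shares over all genes tested were 1.23% higher and 2.14% lower. Gpx1, a glutathione peroxidase, stood at 77.7, 103 and 90.6 FPKM at day 10 and at 136, 118 and 118 FPKM at day 12 (log2 change 0.46, SE 0.12, adjusted p = 0.0275). Mgst1, a membrane glutathione transferase, stood at 1.56, 1.97 and 1.78 FPKM at day 10 and at 5.46, 6.34 and 2.05 FPKM at day 12 (log2 change 0.92, SE 0.24, adjusted p = 0.0338). Gclc, the first enzyme of glutathione synthesis, stood at 39.9, 33.2 and 36.9 FPKM at day 10 and at 27.5, 29.9 and 30.7 FPKM at day 12 (log2 change -0.31, SE 0.085, adjusted p = 0.0436). In all 3 the nearest libraries of the days were close, though they did not overlap. As libraries were left out in turn, calls were lost for Gpx1 without replicate 1 or 3 of day 10, or replicate 1 or 2 of day 12 (adjusted p 0.0534 to 0.161) and Mgst1 without replicate 1, 2 or 3 of day 10, or replicate 1 or 2 of day 12 (adjusted p 0.0607 to 0.186), and for Gclc without replicate 1 or 3 of day 10, or replicate 1 or 2 of day 12 (adjusted p 0.0931 to 0.205). With libraries rescaled to an equal sum, Mgst1 (adjusted p 0.0571) and Gclc (adjusted p 0.0719) missed the threshold, Gclc also with upper quartile scaling (adjusted p 0.0547), quantile normalization (adjusted p 0.0562) and the trend over gene span removed (adjusted p 0.105). Of the 21 tested genes that FoxO factors or the loss of growth factors control, 2 rose and 2 fell (1.23% and 2.14% over all genes). Cited2, a transcriptional co-regulator, stood at 191, 189.5 and 219 FPKM at day 10 and at 136, 141 and 135 FPKM at day 12 (log2 change -0.53, SE 0.065, adjusted p = 1.6e-05). Gadd45a, a stress and growth arrest gene and also the 1 riser among 24 p53 targets, stood at 71.9, 75.6 and 72.9 FPKM at day 10 and at 108, 103 and 101 FPKM at day 12 (log2 change 0.49, SE 0.095, adjusted p = 0.00321). Pik3ip1, an inhibitor of PI3 kinase, changed by 0.63, SE 0.16 (adjusted p = 0.0248), and this call was lost without replicate 1 or 3 of day 10, or replicate 2 of day 12 (adjusted p 0.0684 to 0.136), and with libraries rescaled to an equal sum (adjusted p 0.0654).

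Few matrix and secreted genes passed. Over all genes tested 1.23% rose and 2.14% fell. Among 9 collagens tested 1 fell, Col5a2, at 472, 444 and 458 FPKM at day 10 and at 356, 399 and 386 FPKM at day 12 (log2 change -0.27, SE 0.071, adjusted p = 0.0307), and Col1a1 stood at 1077, 821 and 1070 FPKM at day 10 and at 950.2, 995 and 679 FPKM at day 12, with overlap (log2 change -0.19, SE 0.13, adjusted p = 0.465). Of 26 other matrix genes 2 fell and 1 rose. Nid2, a linker of basement membranes, fell by 0.45 (adjusted p = 0.00659), Plod2 fell as described earlier, and Emilin1, of elastic fibres, rose by 0.37 (adjusted p = 0.00358). Of 17 secreted factors of senescence 2 fell, among them the cytokine Lif, and 1 rose, the growth factor Csf1. Lif stood at 2.94, 3.72 and 3.42 FPKM at day 10 and at 1.16, 0.731 and 0.698 FPKM at day 12 (log2 change -1.23, SE 0.34, adjusted p = 0.0398). Csf1 stood at 27.8, 23.6 and 26.2 FPKM at day 10 and at 29.7, 33.4 and 32.9 FPKM at day 12 (log2 change 0.30, SE 0.068, adjusted p = 0.0135). Lif was near the filter, and Csf1 changed by a small amount. When a library was left out, calls were lost for Col5a2 without replicate 1 or 3 of day 10, or replicate 1 of day 12 (adjusted p 0.0781 to 0.179) and Nid2 without replicate 1 of day 12 (adjusted p 0.0649), and for Lif whichever of the 6 libraries was left out (adjusted p 0.0804 to 0.115) and Csf1 without replicate 2 of either day (adjusted p 0.0732 to 0.0849). Csf1 missed the threshold with libraries rescaled to an equal sum (adjusted p 0.206), as did Col5a2 (adjusted p 0.0683) and Emilin1 (adjusted p 0.0949). Quantile normalization ended the calls of Col5a2 (adjusted p 0.144) and Lif (adjusted p 0.0517), and removing the trend over gene span that of Col5a2 (adjusted p 0.338). Of the markers of other cell types, Des, a muscle filament protein (0.38, adjusted p = 0.0429), and the keratin Krt8 (0.46, adjusted p = 0.0478) rose. Those calls were lost for Des without replicate 1 or 3 of either day (adjusted p 0.0575 to 0.266) and Krt8 without replicate 1, 2 or 3 of day 10, or replicate 1 or 2 of day 12 (adjusted p 0.0817 to 0.327), and both with libraries rescaled to an equal sum (adjusted p 0.144 and 0.176) or the trend over gene span removed (adjusted p 0.0824 and 0.0502).

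Cell cycle genes stayed low. None of 47 DNA replication genes (median -0.002; 4 higher and 1 lower before correction) and none of 33 mitosis genes (median -0.078; 0 and 0) passed in limma. Mki67, a marker of dividing cells, stood at 0.134, 0.0388 and 0.0415 FPKM at day 10 and at 0.0411, 0.144 and 0.0751 FPKM at day 12, against 52.3 FPKM in unstarved control cells, and Ccna2, cyclin A2, at 0.634, 0.302 and 0.152 FPKM at day 10 and at 0.266, 0.127 and 0 FPKM at day 12. The ranges of both days overlap near 0. Of 15 CDK inhibitors, D cyclins and pocket proteins 1 fell, Cdkn2b, the inhibitor p15, at 47.95, 47.8 and 48.2 FPKM at day 10 and at 36.3, 33.8 and 40.8 FPKM at day 12 (log2 change -0.37, SE 0.10, adjusted p = 0.0348). Its call was lost without replicate 1, 2 or 3 of day 10, or replicate 1 or 2 of day 12 (adjusted p 0.0800 to 0.153), with libraries rescaled to an equal sum (adjusted p 0.08), with upper quartile scaling (adjusted p 0.0588) and after quantile normalization (adjusted p 0.0671). The cyclin Ccnd1 changed by -0.041, SE 0.10 (adjusted p = 0.860), and the inhibitors Cdkn1a by 0.13, SE 0.13 (adjusted p = 0.647) and Cdkn1b by 0.071, SE 0.10 (adjusted p = 0.761), all 3 with overlap. Myod1, the muscle regulator, stood at 4.08, 3.95 and 4.90 FPKM at day 10 and at 5.86, 4.998 and 2.78 FPKM at day 12, also with overlap (log2 change 0.023, SE 0.24, adjusted p = 0.967).

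Cytosolic ribosomal proteins had fitted changes above 0 in 70 of 71 tested members, against 3980 of all 8940 genes, and a median of 0.233. Before correction 19 were higher at p under 0.05, and 1 passed after it. The mean of the list set against its day 10 mean was -0.243, 0.113 and 0.13 in the day 10 libraries and 0.188, 0.28 and 0.262 in those of day 12, so day 10 replicate 1 stood apart from the other 2. Without that library the median was 0.122 and no member passed. None passed after quantile normalization either, and 3 did with upper quartile scaling. Of 56 respiratory chain genes 1 rose (median 0.144), Sdhc, a subunit of succinate dehydrogenase (0.34, adjusted p = 0.0337). This call was lost without replicate 1, 2 or 3 of day 10, or replicate 2 or 3 of day 12 (adjusted p 0.0632 to 0.144). Of 42 proteasome genes 1 rose, Psmb9 (median 0.11). Without day 10 replicate 1 these medians were 0.054 and 0.007. None of 32 ribosome biogenesis genes passed in limma (median -0.007; 1 higher and 0 lower before correction).

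**Figure D5:**
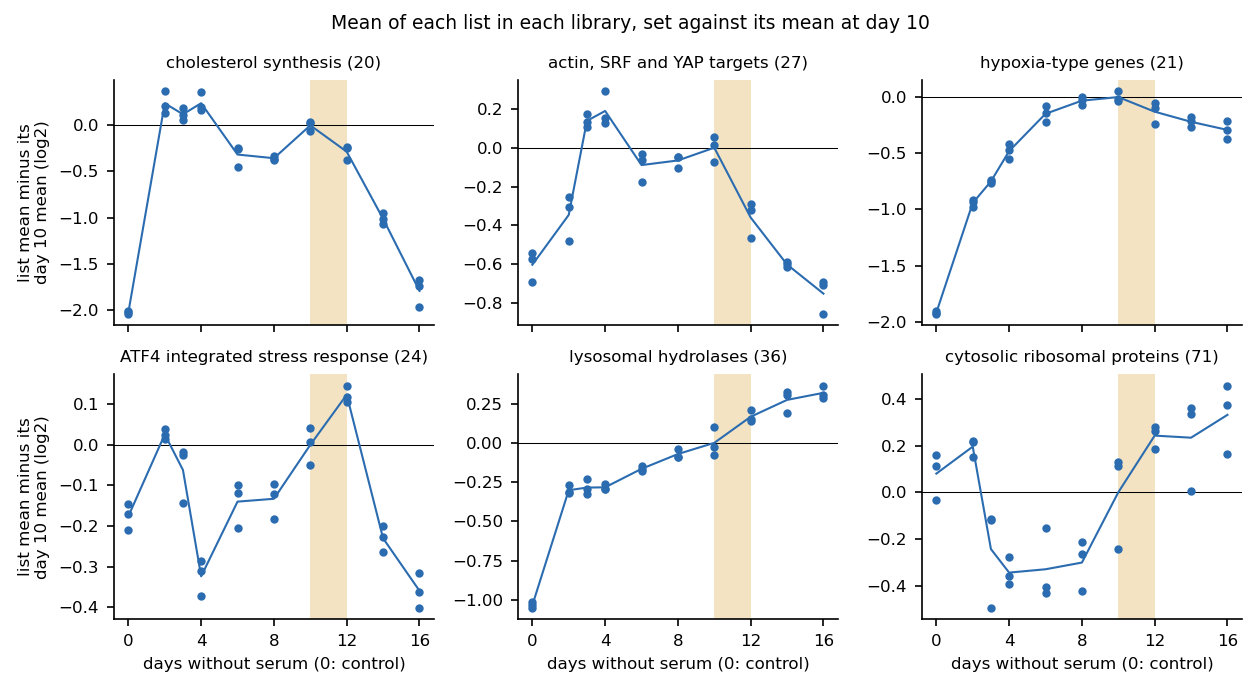
Mean of 6 gene lists in each of the 30 libraries (points) and per day (lines), as the difference from the list's mean at day 10 (vertical axes, log2 of FPKM + 1) over days without serum (horizontal axes, 0 for the unstarved control), with the number of genes in brackets. From day 10 to day 12, shaded, the actin and cholesterol lists drop below 0 in all 3 libraries, and the ATF4 list stands above 0 at day 12 and below it at day 14.

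The step was then set against the other 2-day steps, by testing the difference between the changes. The change from day 10 to day 12 differed from that of day 8 to day 10 in 100 genes (1.12% of those tested), from that of day 12 to day 14 in 16 (0.179%) and from that of day 14 to day 16 in 100 (1.12%). The comparison with days 8 to 10 shares the libraries of day 10, and that with days 12 to 14 those of day 12, so a deviation of that day enters both steps with opposite sign. For comparison, 106 genes rose and 30 fell from day 8 to day 10, 104 rose and 216 fell from day 12 to day 14, and 100 rose and 73 fell from day 14 to day 16. As single libraries of days 10 and 12 were left out, the 16 ranged from 7 (without day 12 replicate 1) to 23 (without day 10 replicate 2). The first 100 ranged from 33 (without day 10 replicate 2) to 107 (without day 12 replicate 3). The last 100 ranged from 54 (without day 12 replicate 2) to 75, without day 10 replicate 2 or day 12 replicate 3.

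Cyr61, Dusp6, Spp1 and Insig1 had their highest mean of all 10 groups at day 10, that of Cyr61 being within its spread of day 4 (521 ± 63.9 FPKM). Cyr61 averaged 363 ± 15.5 FPKM (SD, n = 3) at day 8, 546 ± 43.1 at day 10, 191 ± 3.97 at day 12 and 145 ± 9.68 at day 14. Its fall from day 10 to day 12 exceeded that of day 12 to day 14 (difference -1.101, SE 0.16, adjusted p = 0.000449). Dusp6 kept falling, from 26.4 ± 2.75 at day 10 to 10.8 ± 1.37 at day 12 and 4.54 ± 0.285 at day 14, and its 2 falls did not differ past the threshold (difference -0.12, SE 0.24, adjusted p = 0.930). Spp1, the secreted phosphoprotein osteopontin, had risen from 90.2 ± 16.4 to 376 ± 20.7 FPKM by day 10 and stood at 304 ± 18.4 at day 12, a fall short of the threshold (adjusted p = 0.0848). For the cholesterol genes Hmgcs1 and Insig1 the means were 186 ± 10.6 and 188 ± 13.8 FPKM at day 8, 246 ± 6.10 and 266 ± 7.47 at day 10, 197 ± 15.3 and 204 ± 10.1 at day 12. Both had risen in the step before, and both fell further from day 12 to day 14, to 122 ± 5.86 and 126 ± 2.45.

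Chac1 and Trib3, of the ATF4 list, had the opposite course. Chac1 averaged 17.8 ± 2.53 FPKM at day 10, 31.2 ± 2.99 at day 12 and 13.6 ± 1.36 at day 14 (difference from the next step 1.92, SE 0.24, adjusted p = 9.67e-05). Trib3 went from 33.8 ± 0.574 to 53.6 ± 6.15 and 31.6 ± 1.004 (difference 1.38, SE 0.21, adjusted p = 0.00114). Trib3 had its highest mean of all 10 groups at day 12, and Chac1 had there a mean close to that of day 2 (30.2 ± 4.10). Clk1 dipped at day 12, with 69.5 ± 12.7, 40.3 ± 7.45 and 68.2 ± 19.1 FPKM at days 10, 12 and 14 (difference -1.503, SE 0.29, adjusted p = 0.0209). Rhob, a small GTPase, turned upward in this step, from 46.5 ± 1.43 at day 8 to 31.95 ± 2.84 at day 10 and 47.7 ± 4.76 at day 12 (difference from the step before 1.09, SE 0.13, adjusted p = 1.25e-05). Cxcl12, a chemokine of stromal cells, had its lowest mean at day 12, 20.8 ± 2.71 FPKM, against 25.2 ± 0.480 at day 10 and 50.1 ± 7.21 at day 14 (difference from the next step -1.495, SE 0.14, adjusted p = 1.73e-06). Its change from day 10 to day 12 itself missed the threshold (adjusted p = 0.0763).

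The changes were also graded by the length of the gene. Span on the genome was taken from RefSeq (build GRCr8) for the 93.4% of tested genes whose symbol matched. In quartiles of rising span, of median 5.47, 15.8, 33.5 and 95.1 kb, the median change was 0.082, 0.003, -0.061 and -0.127. Rises were 2.2% of the shortest and 0.527% of the longest quartile, and falls 1.49% and 3.26%. The same medians were 0.065 and -0.063 in the shortest and longest quartile from day 8 to day 10, and -0.033 and 0.038 from day 12 to day 14. With the trend over span removed from each library, 139 genes rose and 190 fell, 42.2% of the calls being rises. Of the 301 calls, 278 were tested there and 230 were kept. Among the named genes 8 lost the call (Jun, Acsl1, Hspa5, Lgals3bp, Gclc, Col5a2, Des and Krt8). Ribosomal protein genes then had a median of 0.144, cholesterol synthesis -0.305 and the actin, SRF and YAP list -0.309.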

How the data were processed

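The authors deposited 1 FPKM value per library for each of 17353 gene symbols, over 30 libraries of total RNA. Per the submitters' processing notes, Cuffnorm 2.2.1, Cufflinks and TopHat2 2.1.1 were used, and the build was rn6. The annotation, filters and scaling across libraries are not given in the sources used here. In short genes a few fragments give a large FPKM, which can move a library's sum.

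Groups follow the sample titles. Genes with a mean of at least 1 FPKM over the 30 libraries (8940) were analysed as log2(FPKM + 1) with limma 3.58.1 in R 4.3.3, with 10 group means, variances moderated by empirical Bayes along a trend with the mean, no replicate block, two-sided tests and Benjamini-Hochberg adjustment over all genes tested at a threshold of 0.05. Folds on this scale understate the changes of low genes. The contrast was day 12 minus day 10, and 3 further contrasts subtracted the changes of days 8 to 10, 12 to 14 and 14 to 16. In simulated data for the first contrast, with 200 of 8940 genes shifted, 11.8% of shifts of 0.3, 50% of shifts of 0.5 and 92.4% of shifts of 1 (log2) were recovered, and 3.77% of calls were false. The simulated noise was normal and independent between genes and libraries, with the fitted spread, as the model assumes. Spread shared by libraries was not simulated, so the false share is not an error rate for the real calls.

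The named genes are the 12 largest rises and 12 largest falls among called genes that average 5 FPKM or more and have separate libraries, examples from up to 4 members of each of the 45 lists with the smallest p, a fixed set of well known genes, and the 4 most positive and 4 most negative genes of each difference between steps. Some genes that these rules select are not reported here. The lists came from general knowledge. The step, the lists and the rules were chosen with earlier results of these data known, so lists are described by counts and medians and get no test. Promoter sequences are RefSeq's (GRCr8). Alternatives covered the filter, the pseudocount, the scaling, the libraries fitted, a replicate block, each library left out, and, chosen after seeing the data, removal of the trend over gene span.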

Additional observations from a re-analysis of the deposited data

Results flagged for a closer look

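For the genes named above, the change from day 10 to day 12 was tested against that of the other 2-day steps by limma, as the difference of the log2 changes with adjustment over all genes tested, and values below are these differences. Passing this test picked them out, no cause was tested, and the comparisons with the steps before and after share the libraries of a day. Many of the 99 genes were named for their change in this step or for such a difference. Their counts were therefore bound to exceed the shares over all genes tested, and are a listing only.

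Against the step from day 8 to day 10, 31 of the 99 named genes differed (1.12% of all genes tested did). The change was the lower of the 2 in 22, namely Spp1 (-2.37), Cyr61 (-2.09), Glb1l2 (-1.73), Dusp6 (-1.67), Hsd17b7 (-1.38), Stard4 (-1.24), Lpin1 (-1.16), Kprp (-1.02), Spry2 (-0.96), Acsl1 (-0.96), Tgfb3 (-0.94), Akap12 (-0.94), Idi1 (-0.93), Insig1 (-0.88), Spry4 (-0.81), Cdkn2b (-0.805), Lss (-0.77), Nid2 (-0.72), Hmgcs1 (-0.72), Ctgf (-0.704), Srf (-0.58) and Cited2 (-0.57). It was the higher in 9, namely Csf1 (0.52), Emilin1 (0.53), Galnt16 (0.93), Scara5 (0.95), C1qtnf5 (0.97), Olfml3 (1.05), Rhob (1.09), Mlana (1.27) and Atf3 (1.40).

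Against the step from day 12 to day 14, 11 of the 99 differed (0.179% of all genes tested did). The change was lower for Clk1 (-1.503), Cxcl12 (-1.495), Cyr61 (-1.101), C1s (-0.97) and Cited2 (-0.56), and higher for Slc3a2 (0.52), Rhob (0.82), Tm7sf2 (1.31), Trib3 (1.38), Osgin1 (1.64) and Chac1 (1.92).

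Against the step from day 14 to day 16, which shares no library, 31 of the 99 differed (1.12% of all genes tested did). In 14 the change was lower, namely Il1rl1 (-1.50), Edn1 (-1.42), Snai2 (-1.29), Cyr61 (-1.27), Cxcl12 (-1.25), Ankrd1 (-1.19), Txnip (-1.096), Akap12 (-1.06), Clk1 (-1.05), Dusp6 (-1.04), Glb1l2 (-0.804), Cited2 (-0.71), Spry2 (-0.502) and Srf (-0.37). In 17 it was higher, namely Insig1 (0.45), Slc3a2 (0.48), Hmgcs1 (0.501), Herpud1 (0.51), Gadd45a (0.53), Rhob (0.57), Hspa5 (0.58), Npc2 (0.62), C1qtnf5 (0.702), Creld2 (0.75), Trib3 (0.93), Pianp (1.001), Ifi27l2b (1.004), Atf3 (1.27), Chac1 (1.28), Tm7sf2 (1.501) and Cox6a2 (2.84).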

How the results depend on the processing

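No gene called from day 10 to day 12 changed sign under an alternative among those named here, and each of the 301 calls kept its sign in every alternative that tested it. For most alternatives this was fixed in advance, since in 298 of the 301 the libraries of the days were separate. Leaving libraries out, or changing the filter, the pseudocount or the variance trend, cannot turn the sign of such a gene. Of 80 called genes named, 27 lost the call in no alternative that tested them, of up to 18 that use libraries of other days, and 53 lost it in at least 1. Most were lost with replicates 2 and 3 only (40) and without day 12 replicate 1 (39), none of 80 with the block in all groups and none of the 73 tested with at least 5 FPKM. Rescaling to an equal sum lost 21, leaving out short RNA first 15, quantile normalization 9, no filter 8, removing the span trend 8 of 78 tested, no variance trend 6 and upper quartile scaling 3. With a pseudocount of 0.1 there were 11 such losses, and 2 with a pseudocount of 5. Of 19 named genes not called, 7 were called in at least 1 alternative. With only the 6 libraries 8 of the 80 were called, and 13 with a block there. The cause of each change was not tested.

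There were 62 rises with libraries rescaled to an equal sum, 168 rises after quantile normalization, 292 falls with libraries rescaled after removing short RNA genes, 2 and 9 with only the libraries of the days compared, and 38 and 115 with replicates 2 and 3 only. As each library was left out they ran from 49 to 107 rises and from 82 to 236 falls.

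Genes differing from the step of days 8 to 10 numbered 32 with the rescaled sum and 20 with only the libraries compared, and 33 to 107 as each library was left out. For days 12 to 14 they were 7 with the rescaled sum, 5 with only the libraries compared, 7 with replicates 2 and 3 only, 8 with short RNA left out, and 7 to 23 as each library was left out. For days 14 to 16 they were 33 with only the libraries compared, 33 with replicates 2 and 3 only, and 54 to 75 as each library was left out.

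A block for replicate number gave 255 rises and 474 falls in all groups, with 214, 28 and 194 genes differing from days 8 to 10, 12 to 14 and 14 to 16. In the libraries compared alone it gave 6 rises, 22 falls, and 19, 7 and 103 differing genes. The labels do not say what a number shares. Deviations of same-numbered libraries of days 10 and 12 from their group means correlated at 0.298, 0.045 and 0.105. Day 10 replicate 1 correlated best with its own number, and at -0.166 and -0.188 with replicates 2 and 3 of day 12. Day 10 replicates 2 and 3 correlated best with another number (0.076 and 0.112), by small margins. These values set replicate 1 apart but do not settle whether numbers 2 and 3 pair. The main fit had no block, so spread shared by a number stayed in its residual. With 3 libraries a day, 11.8% of simulated shifts of 0.3 were recovered.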

Other observations

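Other gene groups showed few calls in this step. Of 23 heat shock proteins and chaperonins tested 1 rose and 1 fell (limma, median change -0.019). Hspb8, a small heat shock protein, stood at 50.2, 47.3 and 53.5 FPKM at day 10 and at 61.9, 62.2 and 63.3 FPKM at day 12 (log2 change 0.31, SE 0.084, adjusted p = 0.0402). Hsph1, a nucleotide exchange factor for Hsp70 chaperones, stood at 127, 134 and 137 FPKM at day 10 and at 99.97, 100.4 and 118 FPKM at day 12 (log2 change -0.33, SE 0.07, adjusted p = 0.00792). The days did not overlap in either gene. Among 16 genes of iron and heme handling 1 rose (median change -0.003). It was Blvrb, biliverdin reductase B, at 74.6, 82.7 and 92.4 FPKM at day 10 and at 110.1, 112 and 109.8 FPKM at day 12 (log2 change 0.41, SE 0.10, adjusted p = 0.0207), again with separate days. With 1 library left out, calls were lost for Hspb8 whichever of the 6 libraries was left out (adjusted p 0.0508 to 0.144), Hsph1 without replicate 1 or 2 of day 12 (adjusted p 0.0527 to 0.0640) and Blvrb without replicate 1 or 2 of either day (adjusted p 0.0561 to 0.124). Hspb8 also missed the threshold with libraries rescaled to an equal sum (adjusted p 0.131) and with short RNA genes left out before rescaling (adjusted p 0.0916).

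Of 14 amino acid transporters 1 passed, the Slc3a2 described above (median change -0.131). None of 14 circadian clock genes passed the limma threshold (median change 0.06), with 3 higher and 0 lower at an unadjusted p under 0.05. None of 4 metallothioneins and metal response genes passed either (median change -0.025), with 0 at that unadjusted p. No other tool was run on these lists.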
